A study of Homo sapiens with 8 samples.

Results

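The 43 genes described here encode the machinery of human DNA replication, and they were chosen by name: a probe counted when the array named one of the 43 genes as its target. The chosen genes make up 43 of the 36337 gene names on the array. All 43 were found, with 56 probes, and they fall into 8 roles, from the proteins that mark origins to the enzymes that make nucleotides. RNA was measured on 8 single-colour (Cy3) human microarrays from 4 cell lines, with 2 independent biological replicates a line. The parent was HEK293, an established line of human embryonic kidney cells, here called FT293 because it carries a Flp-In site and the T-REx repressor. All 4 lines were made by Flp recombinase at a single genomic site, all were treated with tetracycline, which switches on the inserted gene, and all expressed GFP, alone in the GFP line and fused to HuR, TIA1 or TIAR in the HuR, TIA1 and TIAR lines. RNA was taken 3 days after induction. Tetracycline was therefore present in every group, so that the comparisons are between expressed proteins. The inserted gene was driven by an inducible promoter, and in the HuR, TIA1 and TIAR lines it came on top of the cells' own copy of that gene.

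Replication starts at origins bound by the origin recognition complex (ORC), onto which CDC6 and CDT1 load the ring-shaped MCM helicase in G1. CDC45, the GINS complex and MCM10 turn that ring into a moving helicase, polymerase alpha and primase lay down primers, and polymerases delta and epsilon, held by the PCNA clamp that the RFC complex loads, copy the strands. Many of these genes are transcribed in G1 and S phase through E2F transcription factors. TIA1 and TIAR (gene TIAL1) are RNA-binding proteins that act in splicing and in translation, and HuR (gene ELAVL1) is an RNA-binding protein known for stabilizing messages. The comparisons ask whether the messages of the replication machinery differ between cells that express a TIA protein and cells that express HuR or GFP alone.

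A level below is the log2 of an array's processed signal minus that array's 75th percentile, so that 0 means as bright as the probe at that percentile, and a difference of 1 is a 2-fold change. Each gene is given by its brightest probe. Every one of the 56 probes was well above background on all 8 arrays, and no spot was saturated. The GFP 1 array stood apart: 86% of its 50599 probes were called well above background, against 53.2% to 58.5% on the other 7, and its mean local background was 83.2 intensity units against 35.7 to 41.5. On it 42 of the 43 members read lower than on GFP 2, with a median difference of -0.39, where all genes had a median of -0.16 and a median absolute difference of 0.36. After quantile normalization 27 of the 43 read lower, with a median of -0.048. In the other lines the members' median absolute difference between replicates was 0.06 (HuR), 0.09 (TIA1) and 0.10 (TIAR). Of 6 markers fixed for HEK293 cells, 5 were well above background on all 8 arrays and the other (NEFM) on 7. Of 9 markers of blood, endothelium, liver and muscle, 3 (PTPRC, CDH5 and MYOD1) were called above background on all 8 arrays and the other 6 on 1 to 6 arrays. PTPRC read 1.12 on GFP 1 and -4.66 to -3.94 on the other arrays. Their part in the members' levels was not tested.

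Of the genes of the expressed proteins, only TIAL1 followed the labels. Its brightest probe read 4.87 and 4.98 on the TIAR arrays and 1.63 to 2.52 on the other 6, 2.44 higher in TIAR than in HuR cells (adjusted p = 0.00376), while a second TIAL1 probe read -0.39 (adjusted p = 0.0892). The TIA1 probes read 0.98 and 0.52 lower in TIA1 than in HuR cells (log2 fold changes -0.98 and -0.52) and 1.58 and 0.55 lower in TIAR cells (-1.58 and -0.55). The brightest TIAL1 probe read -0.81 in TIA1 cells (adjusted p = 0.00721), and the ELAVL1 probe read 0.33 and 0.42 on HuR, below both GFP arrays at 1.09 and 0.91. A probe outside the inserted sequence reads only the cells' own message, and whether these probes lie inside it is not given in the sources used here. The arrays labelled TIA1 and HuR are therefore taken at their labels, and every direction below rests on them.

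Against HuR cells, more members rose than fell in both TIA lines. In TIA1 cells 16 of the 43 rose, 5 fell and 22 did not pass the test (limma, Benjamini-Hochberg adjusted p under 0.05 over all probes tested). Over all 21221 genes tested in that comparison 24.2% rose and 17.3% fell, against 37.2% and 11.6% of the members. In TIAR cells 15 members rose, 3 fell and 25 did not pass, or 34.9% and 6.98%, where 18.6% rose and 12.2% fell of the 21503 genes tested. The median log2 fold change of the members was 0.25 in TIA1 cells and 0.23 in TIAR cells, where the medians over all genes were 0.08 and 0.06. At 2-fold or more, CDC6 and TK1 rose in TIA1 cells and CDC6, CDT1 and TK1 in TIAR cells, which is 2 and 3 of 43 members where 8.44% and 7.38% of all genes passed that rule. No member fell by 2-fold, as 4.74% and 2.84% of all genes did, and the largest decrease was 0.75 on the log2 scale. Both comparisons share the same HuR arrays, so their values are given side by side and are not independent of each other. The arrays read RNA from whole cultures, so a change in the share of cells in S phase and a change of the message per cell cannot be told apart. Without either HuR array, the other being taken to vary like the TIA arrays, 2 members (CDC6 and TK1) stayed higher and 0 lower in TIA1 cells, and 0 passed in TIAR cells. Of all genes 7.84% or 6.88% were then higher in TIA1 and 2.4% or 2.02% in TIAR cells, so that the members' share was no longer above that of all genes. Testing every probe, dim ones included, left 3 higher and 0 lower in TIA1 cells and 4 higher and 0 lower in TIAR cells, where 6.3% and 4.22% of all genes were higher.

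**Figure D1:**
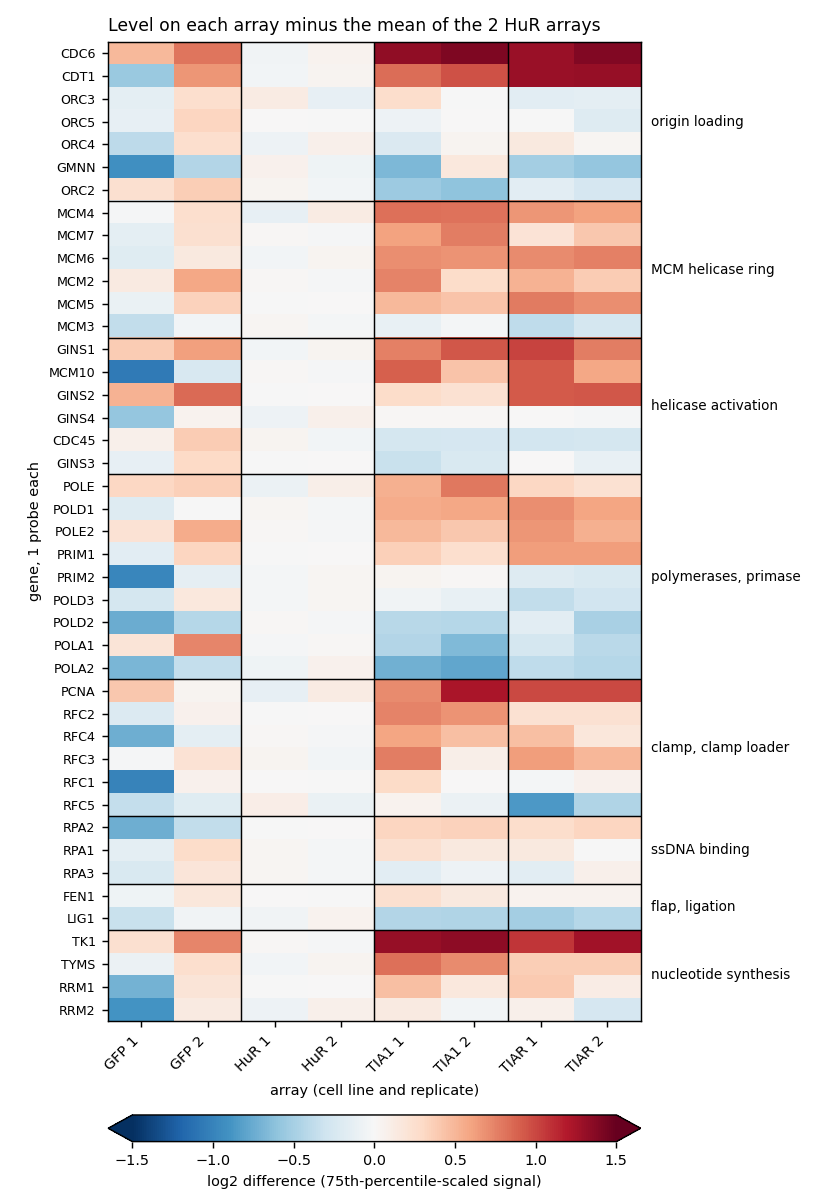
Level of each of the 43 genes (rows, grouped by role) on each of the 8 arrays (columns), as the log2 difference from the mean of the 2 HuR arrays, with red above and blue below. CDC6, CDT1, TK1, PCNA and GINS1 are red on all 4 TIA1 and TIAR arrays, POLA2 and LIG1 are blue there, and the GFP 1 column is lower than the GFP 2 column for 42 of the 43 genes on this scale (27 of 43 after quantile normalization).

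**Figure D2:**
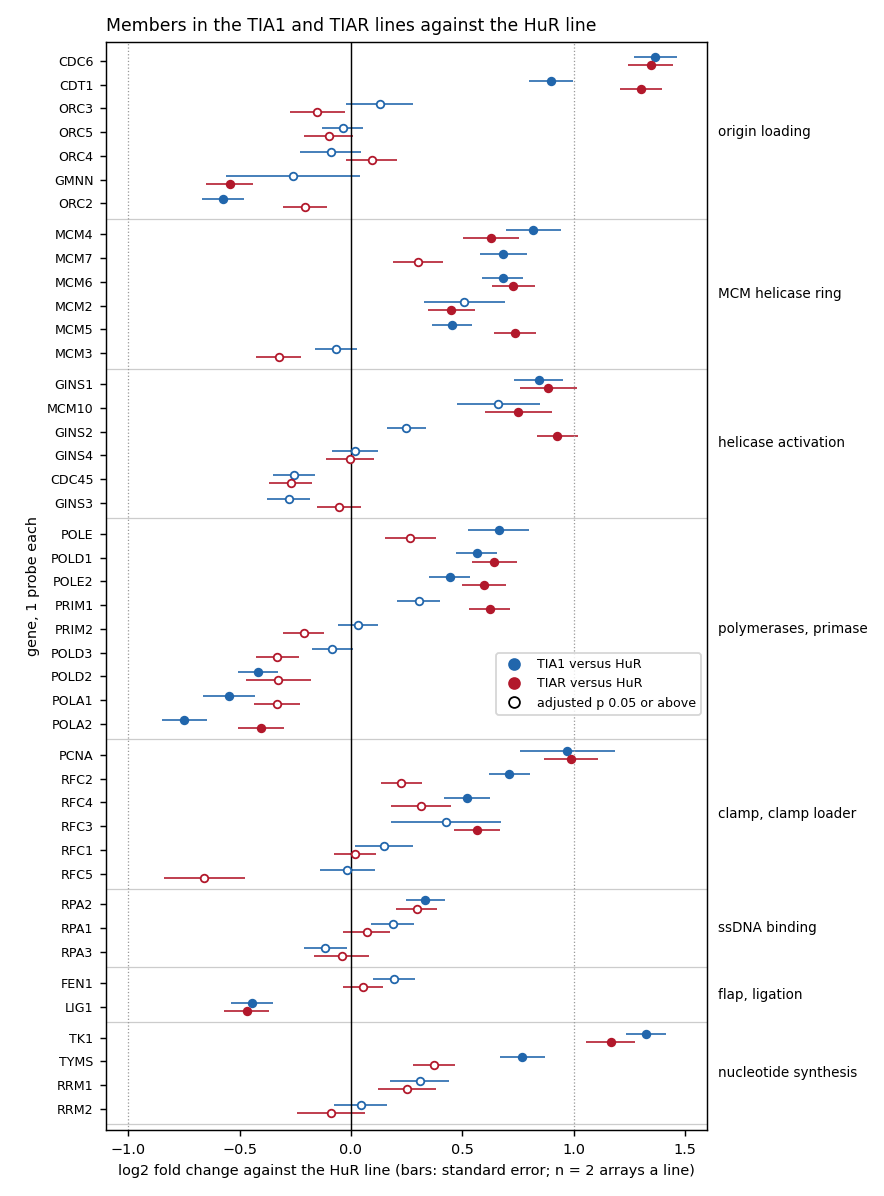
Log2 fold change of each gene in TIA1 (blue) and TIAR (red) cells against HuR cells, with standard errors, from 2 arrays a line; filled points passed the test and dotted lines mark 2-fold. In TIA1 cells 16 filled points lie right of 0 and 5 left, in TIAR cells 15 right and 3 left.

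Promoters of 6 members are shown because these genes moved against HuR and hold letters that match binding sites named for replication genes: CDC6, CDT1, PCNA and MCM6, which rose, and POLA2 and LIG1, which fell. Each line gives the 150 bases before a RefSeq start of the gene (GRCh38.p14), 5′ to 3′ on the gene's strand, with capitals for matches on either strand to an E2F-like site (TTTCCCGC, TTTGGCGC, TTTCGCGC or TTTGGCGG) or to the CCAAT box (CCAAT), and matches may overlap. The stretches lie at chr17:40287729-40287878 (plus strand), chr16:88803639-88803788 (plus), chr20:5126623-5126772 (minus), chr2:135876444-135876593 (minus), chr11:65261812-65261961 (plus) and chr19:48170345-48170494 (minus).
CDC6: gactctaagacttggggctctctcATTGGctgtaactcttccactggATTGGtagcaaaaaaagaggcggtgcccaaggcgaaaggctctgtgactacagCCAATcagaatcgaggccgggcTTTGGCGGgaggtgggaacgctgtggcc
CDT1: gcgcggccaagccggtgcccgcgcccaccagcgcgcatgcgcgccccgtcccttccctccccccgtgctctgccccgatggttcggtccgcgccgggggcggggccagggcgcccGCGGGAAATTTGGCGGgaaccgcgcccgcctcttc
PCNA: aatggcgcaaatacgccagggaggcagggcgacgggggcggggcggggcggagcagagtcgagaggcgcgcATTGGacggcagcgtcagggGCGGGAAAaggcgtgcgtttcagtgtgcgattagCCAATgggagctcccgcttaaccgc
MCM6: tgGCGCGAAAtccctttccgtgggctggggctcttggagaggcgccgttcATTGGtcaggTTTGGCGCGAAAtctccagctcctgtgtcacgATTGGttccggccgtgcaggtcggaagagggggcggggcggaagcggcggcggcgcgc
POLA2: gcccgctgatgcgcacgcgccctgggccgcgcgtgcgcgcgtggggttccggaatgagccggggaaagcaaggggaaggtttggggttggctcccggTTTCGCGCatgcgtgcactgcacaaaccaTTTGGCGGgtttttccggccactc
LIG1: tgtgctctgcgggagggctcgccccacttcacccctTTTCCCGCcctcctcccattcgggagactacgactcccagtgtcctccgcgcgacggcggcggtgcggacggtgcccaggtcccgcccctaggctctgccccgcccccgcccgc

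The MCM6 stretch holds 3 E2F-like matches, 2 of which overlap, and 2 CCAAT boxes, and the CDC6 stretch holds 1 and 3. PCNA has 2 windows in RefSeq, and the one not shown held 2 CCAAT boxes and no E2F-like match. CDT1 and POLA2 hold 2 E2F-like matches each and no CCAAT box in the stretch shown. RefSeq promoter windows of 300 bases (250 before and 50 after the start) were matched by symbol for 37 of the 43 members, 48 windows in all, and MCM4, MCM5, GINS4, POLD3, RPA2 and RPA3 had no entry. An E2F-like match lay in 22 of the 48 windows (45.8%), against 3.35% of all 35116 windows. The CCAAT box lay in 27 (56.2%) against 34.6%, and the CHR element TTTGAA in 1 (2.08%) against 15.2%. The members' windows had a median GC content of 65.7%, all windows 58.7%. E2F-like matches were found in 9 of the 13 matched members that rose in TIA1 cells, in 3 of the 5 that fell and in 10 of the 19 that did not pass. In TIAR cells the counts were 10 of 13, 3 of 3 and 9 of 21. A match is a stretch of letters and not a measured site.

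Of the 7 genes of origin recognition and loading, CDC6 and CDT1, whose products load the helicase, rose in both TIA lines. In each line 1 gene fell, ORC2 in TIA1 and GMNN in TIAR cells. Thus 28.6% rose and 14.3% fell in each line, where all genes gave 24.2% and 17.3% in TIA1 and 18.6% and 12.2% in TIAR cells. CDC6 (probe at chr17:38459354-38459413, hg19) had levels of -2.60 and -2.29 on the GFP arrays, -3.14 and -3.04 on HuR, -1.76 and -1.69 on TIA1 and -1.79 and -1.70 on TIAR. The 4 TIA arrays were above every other array, and the HuR arrays were below both GFP arrays. CDC6 was 2.58-fold higher in TIA1 than in HuR cells (log2 fold change 1.37, SE 0.10, adjusted p = 0.00291) and 2.54-fold higher in TIAR cells (1.35, SE 0.10, adjusted p = 0.00538). It was the dimmest member on every array, at 178 and 202 intensity units on HuR. Over the alternatives its log2 fold change ran from 0.915, under 2-fold, to 1.41 in TIA1 cells. In TIAR cells it ran from 1.005 to 1.39. CDT1 (chr16:88875606-88875665) read 3.26 and 4.48 on GFP, 3.78 and 3.86 on HuR, 4.66 and 4.77 on TIA1 and 5.12 and 5.13 on TIAR. Both TIA lines lay above both HuR arrays, and the GFP arrays lay further apart than those of any other line, 1.22 on the log2 scale. It rose by 0.90 (adjusted p = 0.00608) in TIA1 and by 1.30 (adjusted p = 0.00529) in TIAR cells. GMNN, whose product geminin binds and blocks CDT1, fell by 0.54 in TIAR cells (adjusted p = 0.0273), and its TIA1 arrays, 3.57 and 4.41, lay 0.83 apart, one below and one above both HuR arrays, with a log2 fold change of -0.26 and an adjusted p of 0.523. Of the ORC subunits, ORC2 fell in TIA1 cells by 0.57 (adjusted p = 0.014) and read -0.21 in TIAR cells (adjusted p = 0.188), its second probe passing in neither (-0.12 and -0.39), and ORC3, ORC4 and ORC5 did not pass in either line, with log2 fold changes between -0.15 and 0.13.

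Of the 6 genes of the MCM2 to MCM7 ring, 4 rose and 0 fell in each TIA line, with medians of 0.60 and 0.54. Those that rose were 66.7% in each line, where 24.2% and 18.6% of all genes rose and 17.3% and 12.2% fell. In TIA1 cells MCM4, MCM5, MCM6 and MCM7 rose by 0.82, 0.45, 0.68 and 0.68, and MCM2, at 0.51, did not pass (adjusted p = 0.0884). In TIAR cells MCM2, MCM4, MCM5 and MCM6 rose by 0.45, 0.63, 0.74 and 0.73, and MCM7, at 0.30, did not pass (adjusted p = 0.117). MCM3, an equal partner in the ring, had log2 fold changes of -0.07 and -0.32 that did not pass (adjusted p = 0.598 and 0.0785). The largest change of the ring was that of MCM4 (chr8:48888334-48888393), which read 3.26 and 3.53 on GFP, 3.15 and 3.41 on HuR, 4.11 and 4.09 on TIA1 and 3.94 and 3.88 on TIAR. The 4 TIA arrays lay above all 4 others, which overlapped each other. MCM4 was 1.76-fold higher in TIA1 (adjusted p = 0.0114) and 1.55-fold higher in TIAR cells (adjusted p = 0.0298) than in HuR cells.

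Of the 6 factors that activate the ring, 1 rose in TIA1 and 3 in TIAR cells, and 0 fell. Those that rose were 16.7% and 50%, where 24.2% and 18.6% of all genes rose and 17.3% and 12.2% fell. The 4 GINS subunits, which form a single complex, did not all pass. GINS1 rose by 0.84 in TIA1 cells (adjusted p = 0.0083) and by 0.89 in TIAR cells (adjusted p = 0.0149). GINS2 (chr16:85711654-85711713) read 3.42 and 3.75 on GFP, 2.90 and 2.90 on HuR, 3.17 and 3.13 on TIA1 and 3.82 and 3.83 on TIAR. Its HuR arrays were the lowest, the TIA1 arrays lay between them and GFP, and the TIAR arrays were the highest. GINS2 rose by 0.93 in TIAR cells (SE 0.09, adjusted p = 0.00765) and read 0.25 in TIA1 cells (adjusted p = 0.0892). GINS3 and GINS4 did not pass, with log2 fold changes of -0.28 and 0.02 in TIA1 cells and -0.05 and -0.00 in TIAR cells. MCM10, which holds polymerase alpha at the fork, rose by 0.75 in TIAR cells (adjusted p = 0.0293) and read 0.66 in TIA1 cells (adjusted p = 0.0507). CDC45, the partner of MCM and GINS in the active helicase, read -0.26 and -0.27, and neither passed.

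Of the 9 polymerase and primase genes, 3 rose and 3 fell in TIA1 cells, and 3 rose and 1 fell in TIAR cells. These are 33.3% and 33.3% in TIA1 cells (all genes 24.2% and 17.3%) and 33.3% and 11.1% in TIAR cells (all genes 18.6% and 12.2%). POLD1, the catalytic subunit of polymerase delta, rose by 0.56 in TIA1 (adjusted p = 0.0136) and by 0.64 in TIAR cells (adjusted p = 0.0176), and POLE2, the second subunit of epsilon, by 0.44 and 0.60. POLE, the catalytic subunit of epsilon, rose by 0.66 in TIA1 cells and read 0.27 in TIAR cells (adjusted p = 0.149), while PRIM1, the catalytic subunit of primase, rose by 0.62 in TIAR cells and read 0.30 in TIA1 cells (adjusted p = 0.0676). POLA2 (chr11:65062111-65063057), the second subunit of polymerase alpha, read 0.83 and 1.15 on GFP, 1.45 and 1.58 on HuR, 0.79 and 0.73 on TIA1 and 1.13 and 1.08 on TIAR. The HuR arrays were the highest of the 8, and the TIAR arrays lay within the GFP range. POLA2 fell by 0.75 in TIA1 cells (SE 0.10, adjusted p = 0.0091) and by 0.40 in TIAR cells (adjusted p = 0.0499). POLA1, the catalytic subunit of alpha, fell by 0.55 in TIA1 cells (adjusted p = 0.0263) and read -0.33 in TIAR cells (adjusted p = 0.0781). POLD2 fell in TIA1 cells by 0.42 (adjusted p = 0.0263), and POLD3 did not pass in either line.

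PCNA, the sliding clamp, rose in both TIA lines, together with 2 of the 5 RFC genes of its loader in TIA1 and 1 in TIAR cells. Of the 6 clamp and loader genes 50% and 33.3% thus rose, where 24.2% and 18.6% of all genes did. In both lines 0 of them fell, where 17.3% and 12.2% of all genes did. PCNA (chr20:5095811-5095870) read 4.49 and 4.13 on GFP, 3.97 and 4.21 on HuR, 4.80 and 5.32 on TIA1 and 5.08 and 5.08 on TIAR. On this probe the TIA arrays were above all others, and the GFP and HuR arrays overlapped. On the second probe the TIA arrays were also the highest, but GFP (4.49 and 4.58) lay above HuR (3.88 and 3.99). The third probe read 4.46 on GFP 2, above TIA1 2 at 4.38 and both TIAR arrays at 4.30 and 4.15. PCNA rose by 0.97 (SE 0.21, adjusted p = 0.0275) in TIA1 and by 0.99 (SE 0.12, adjusted p = 0.0113) in TIAR cells. RFC2 and RFC4 rose in TIA1 cells by 0.71 and 0.52 and read 0.23 and 0.32 in TIAR cells, where they did not pass. RFC3 rose in TIAR cells by 0.57 and read 0.43 in TIA1 cells, whose arrays at 3.37 and 2.70 lay far apart. RFC1, the large subunit, did not pass in either, and RFC5 read -0.66 in TIAR cells with an adjusted p of 0.0599.

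Of the 3 genes of the single-strand binding complex RPA, 1 rose in TIA1 and 0 in TIAR cells. That is 33.3% and 0%, where 24.2% and 18.6% of all genes rose. Of the 2 enzymes that finish lagging-strand fragments, 1 fell in each line (50%), where 17.3% and 12.2% of all genes fell. RPA2 (chr1:28218305-28218364) read 3.25 and 3.61 on GFP, 3.97 and 3.99 on HuR, 4.30 and 4.32 on TIA1 and 4.25 and 4.30 on TIAR. The TIA arrays were above the HuR arrays, and those above the GFP arrays, while the TIA1 and TIAR arrays nearly touched at 4.30. RPA2 rose by 0.33 in TIA1 cells (adjusted p = 0.0442) and read 0.30 in TIAR cells (adjusted p = 0.0789), and RPA1 and RPA3 did not pass in either line. FEN1, the nuclease that removes flaps, did not pass, at 0.19 and 0.05. LIG1 (chr19:48618822-48618881), the ligase that seals the fragments, read 3.20 and 3.48 on GFP, 3.49 and 3.59 on HuR, 3.10 and 3.09 on TIA1 and 3.03 and 3.12 on TIAR. All 4 TIA arrays were below the other 4. LIG1 fell by 0.45 in TIA1 (adjusted p = 0.0252) and by 0.47 in TIAR cells (adjusted p = 0.0347).

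Of the 4 nucleotide genes, 2 rose in TIA1 cells and 1 in TIAR cells, and 0 fell. The shares that rose were 50% and 25%, where 24.2% and 18.6% of all genes rose and 17.3% and 12.2% fell. TK1 (chr17:76170193-76170252), which salvages thymidine and is known for its S-phase expression, read 5.78 and 6.27 on GFP, 5.55 and 5.52 on HuR, 6.85 and 6.88 on TIA1 and 6.61 and 6.79 on TIAR. The 4 lines did not overlap, and HuR was the lowest. TK1 was 2.51-fold higher in TIA1 cells (log2 fold change 1.33, SE 0.09, adjusted p = 0.00282) and 2.25-fold higher in TIAR cells (1.17, SE 0.11, adjusted p = 0.00724). TYMS, the enzyme that makes thymidylate anew, rose by 0.77 in TIA1 cells (adjusted p = 0.00858) and read 0.37 in TIAR cells (adjusted p = 0.0507). RRM1 and RRM2, the subunits of ribonucleotide reductase, read 0.31 and 0.04 in TIA1 cells and 0.25 and -0.09 in TIAR cells, and none of the 4 values passed.

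**Figure D3:**
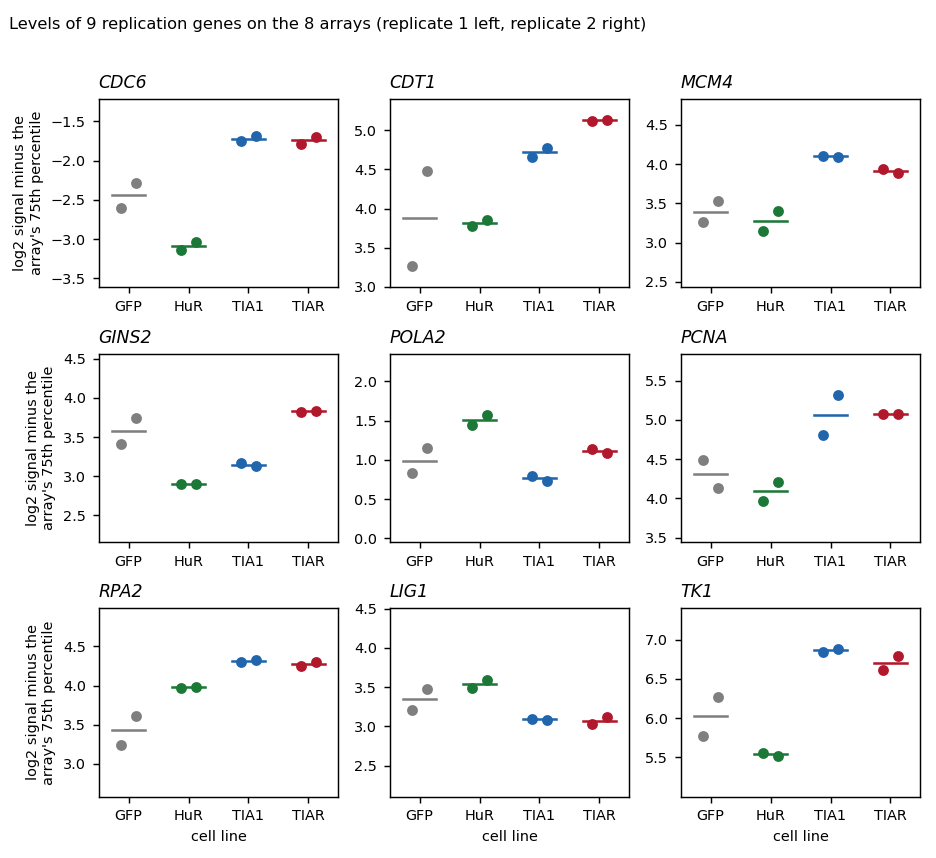
Levels of the gene with the largest change of each role, and of CDT1, on the 8 arrays (points, replicate 1 left and replicate 2 right; lines, mean of the 2 arrays), as log2 signal minus the array's 75th percentile; every panel spans the same range. On the probe shown of each gene, the TIA1 and TIAR arrays are the highest for CDC6, CDT1, MCM4, PCNA, RPA2 and TK1 and the lowest for LIG1.

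Against GFP cells no member passed the test on the 4 arrays of each comparison, and no gene tested did, but with all 8 arrays in a fit, which shares the spread over lines, some did. In limma 0 of 43 members were higher or lower in TIA1, TIAR or HuR cells, as were 0% of the 20714, 21140 and 21351 genes tested. At an unadjusted p under 0.05 there were 10 higher and 2 lower members in TIA1 cells, where 2488 and 1958 of the 20714 genes were. In TIAR cells there were 6 and 1, where 2009 and 1395 of the 21140 genes were. In HuR cells there were 1 and 2, where 1710 and 1893 of the 21351 genes were. A paired t-test, which the paper names for comparisons of 2 groups in general, gave 0 members in each direction even at that level. It gave 4.58% and 3.32%, 4.12% and 2.85%, and 3.25% and 3.06% of all genes. For its arrays the paper names limma. The members' median log2 fold changes were 0.32, 0.26 and -0.05, against 0.02, -0.00 and -0.03 over all genes. With all 8 arrays 10 members were higher and 2 lower in TIA1 cells, 5 and 0 in TIAR cells and 0 and 0 in HuR cells, where 10.9% and 8.09%, 7.22% and 4.36%, and 2.81% and 3.91% of all genes passed. Quantile normalization raised the medians of all genes by 0.19 to 0.20, to 0.21, 0.18 and 0.17, and the members' medians were then 0.20, 0.16 and -0.19, none of them above that of all genes. Side by side, TIA1 and TIAR values against the shared GFP arrays were 0.72 and 0.70 for CDC6, 0.84 and 0.68 for TK1, 0.75 and 0.77 for PCNA and 0.88 and 0.85 for RPA2. The second PCNA probe read 0.52 and 0.44 and the third 0.58 and 0.26. The spread between the GFP arrays was the largest of the 4 lines, with GFP 1 described above. Without GFP 1 the members' medians were 0.09, -0.044 and -0.22, and without GFP 2 they were 0.46, 0.45 and 0.15.

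With GFP 1 left out and the other 7 arrays in a single fit, a choice made after the GFP arrays had been seen to differ, the lone GFP array was taken to vary like the other lines. In TIA1 cells 11 members were then higher than in GFP 2 and 5 lower, where 16.5% of all genes were higher and 13.9% lower. In TIAR cells 7 were higher and 4 lower, against 14.3% and 10.6% of all genes. In HuR cells 0 were higher and 6 lower, against 6.03% and 7.79%. PCNA, by its brightest probe, differed by 0.93 in TIA1 and 0.95 in TIAR cells. The second PCNA probe read 4.58 on GFP 2, 5.18 and 4.93 on TIA1 and 5.09 and 4.86 on TIAR. The third read 4.46 on GFP 2, 4.69 and 4.38 on TIA1 and 4.30 and 4.15 on TIAR, so the gain was not shared by all probes. CDC6 differed by 0.56 and 0.55, MCM6 by 0.54 and 0.59 and POLD1 by 0.57 and 0.65. TK1 differed by 0.59 in TIA1 cells (adjusted p = 0.0231), and CDT1 by 0.64 in TIAR cells (adjusted p = 0.019). POLA1 showed the largest decreases, -1.27 in TIA1 and -1.06 in TIAR cells, and ORC2 (-0.95 and -0.58) and CDC45 (-0.64 and -0.65) were next, in that order in TIA1 and the reverse in TIAR cells. The 6 lower members in HuR cells were CDC6, CDT1, GINS2, POLA1, POLE2 and TK1, at -0.80, -0.66, -0.85, -0.73, -0.56 and -0.74. In the same fit 17 members were higher and 4 lower in TIA1 than in HuR cells, where 24% and 17% of all genes were. In TIAR cells 14 were higher than in HuR cells and 4 lower, against 19.8% and 13.1% of all genes. These GFP values rest on 1 array and differ from the test with both.

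**Figure D4:**
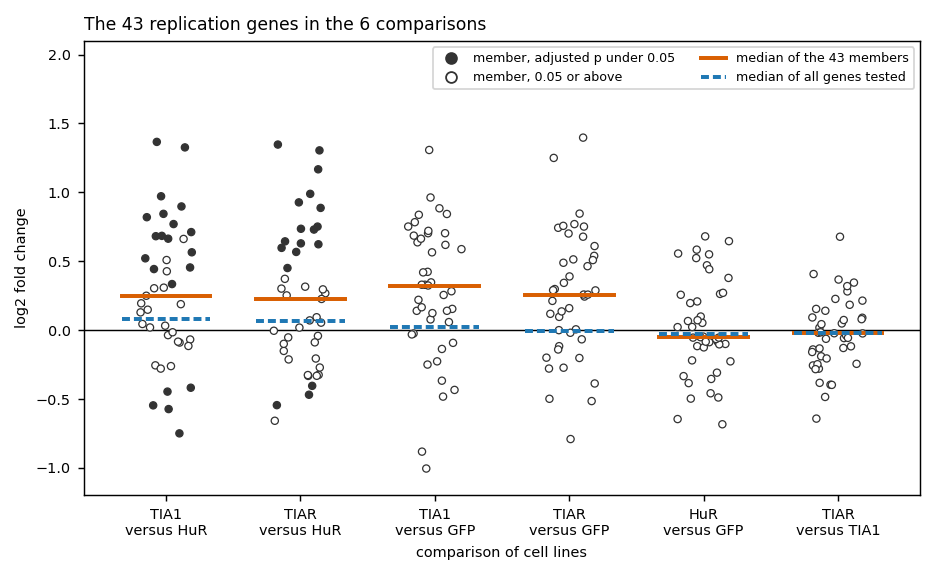
Log2 fold changes of the 43 genes (points; filled where the test was passed) in the 6 comparisons of lines, with the median of the members (solid orange) and of all genes tested (dashed blue). On this scale the orange line lies above the blue in the 4 comparisons of a TIA line with HuR or GFP, which after quantile normalization holds against HuR but not against GFP, and filled points appear only against HuR.

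Between the TIA lines no member passed. In limma 0 of 43 were higher or lower in TIAR than in TIA1 cells, where 1.84% of 20760 genes were higher and 1.57% lower (1.33% and 1.02% by 2-fold or more). At an unadjusted p under 0.05, 5 members were higher and 5 lower, where 2415 and 2427 of the 20760 genes were. By the paired t-test at that level 4 members were higher and 3 lower, where 6.14% and 6.89% of all genes were. The members' median was -0.02 and their range -0.64 to 0.68. GINS2 was the nearest to the threshold, 0.68 higher in TIAR cells (SE 0.11, adjusted p = 0.0538), as the levels above show. RFC2 read 0.49 lower (log2 fold change -0.49, adjusted p = 0.0925), RFC5 -0.64 (adjusted p = 0.129), TYMS -0.40 (adjusted p = 0.136) and CDT1 0.41 (adjusted p = 0.129). In the fit of 7 arrays, chosen after the data were seen, GINS2 passed as higher and RFC2 as lower (adjusted p = 0.0142 and 0.0312). In that fit 5.75% of all genes were higher and 5.27% lower. For the other members that passed against HuR in only 1 of the TIA lines, neither fit shows a difference between those lines, and a p above the threshold does not show that the lines are alike.

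For 11 of the 43 genes the array carries more than 1 probe (9 with 2, 2 with 3), and the values of PCNA, MCM5 and POLE against HuR agreed in direction in both TIA lines. The 3 PCNA probes rose by 0.97, 1.12 and 0.94 in TIA1 cells and by 0.99, 1.04 and 0.62 in TIAR cells. Both MCM5 probes rose in each line, by 0.45 and 0.46 in TIA1 and by 0.74 and 0.61 in TIAR cells, both MCM7 probes rose in TIA1 cells (0.68 and 0.74), both RFC3 probes in TIAR cells (0.57 and 0.51), and both POLE probes in TIA1 cells (0.66 and 0.82). The second RPA2 probe, unlike the first, also passed in TIAR cells (0.43, adjusted p = 0.0422). RPA1 and PRIM2 differed between probes, as the next values show.

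The second RPA1 probe (chr17:1802714-1802773, further along the gene than the standing probe at chr17:1801166-1801225) read -1.37 and -1.02 on GFP, -0.76 and -0.85 on HuR, -0.46 and -0.40 on TIA1 and -2.04 and -1.93 on TIAR. The TIAR arrays were below all others and the TIA1 arrays above. This RPA1 probe rose by 0.38 in TIA1 cells (adjusted p = 0.0398), fell by 1.18 in TIAR cells (adjusted p = 0.00657) and differed between TIAR and TIA1 by -1.56 (adjusted p = 0.0221), where the standing probe read 0.19, 0.07 and -0.12 and did not pass. PRIM2, the large primase subunit, has 3 probes, and its standing probe read 0.03 and -0.21. The probe at chr6:57190782-57190841 rose by 0.84 in TIA1 and by 0.56 in TIAR cells, while the probe at chr6:57512643-57512702 read -0.13 in TIA1 cells and fell by 0.81 in TIAR cells. The RefSeq table lists a PRIM2 pseudogene (PRIM2BP), and which copy each probe reads was not tested, so PRIM2 is given as uncertain.

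**Figure D5:**
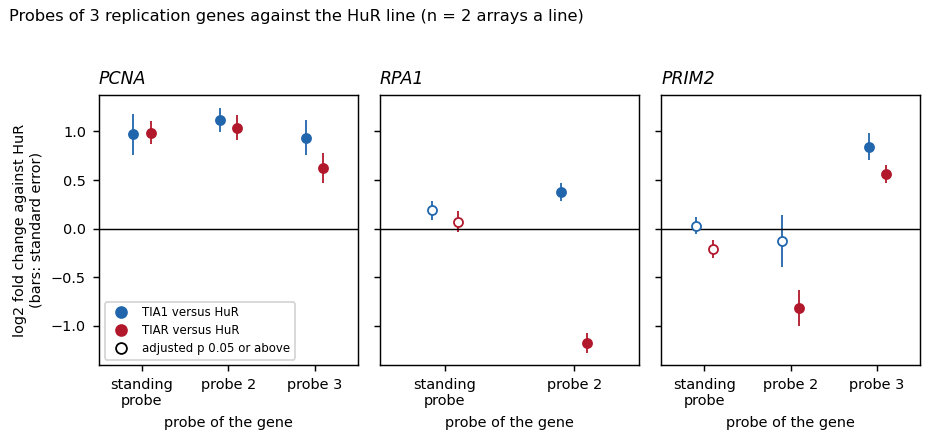
Log2 fold change against HuR of every probe of PCNA, RPA1 and PRIM2 in TIA1 (blue) and TIAR (red) cells, with standard errors (2 arrays a line); filled points passed the test. The PCNA probes all lie above 0, whereas the second RPA1 probe lies at 0.38 in TIA1 and -1.18 in TIAR cells and the PRIM2 probes lie on both sides of 0.

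Of 42 further replication genes listed beside the members, 40 were on the array under the names used. In TIA1 cells 12 rose and 7 fell, in TIAR cells 9 rose and 5 fell, with medians of 0.15 and 0.15. These are 30% and 17.5% in TIA1 cells, where 24.2% and 17.3% of all genes passed, and 22.5% and 12.5% in TIAR cells, where 18.6% and 12.2% did. MCM8, an MCM relative that acts in homologous recombination, read 1.49 and 2.18 on GFP, 0.63 and 0.81 on HuR, 2.43 and 2.19 on TIA1 and 2.02 and 2.08 on TIAR, and rose by 1.59 (adjusted p = 0.00376) and 1.33 (adjusted p = 0.00613). Its HuR arrays lay below all others, the TIA1 arrays above all others, and the TIAR arrays between the GFP arrays. TOP2A, the topoisomerase that untangles sister chromatids, read 2.89 and 3.24 on GFP, 2.71 and 2.82 on HuR, 3.86 and 3.70 on TIA1 and 3.82 and 3.66 on TIAR, and rose by 1.02 and 0.98. ATAD5, which unloads PCNA, read -0.70 and -0.72 on GFP, -1.17 and -1.07 on HuR, -0.30 and -0.034 on TIA1 and 0.19 and -0.083 on TIAR, and rose by 0.96 and 1.17. For both genes the 4 TIA arrays were above the other 4. TIMELESS, of the fork protection complex, fell by 0.71 and 0.39, POLE4, an accessory subunit of polymerase epsilon, by 0.67 and 0.51, and ASF1A, a histone chaperone, by 0.85 and 0.80, whereas its relative ASF1B rose by 0.61 and 0.52.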

How the data were processed

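RNA from 8 cultures (GFP, HuR, TIA1 and TIAR lines, 2 independent biological replicates each) was hybridized to Cy3-labelled Agilent human 8x60K arrays (SurePrint G3, version 2). The intensity values deposited by the authors are scanner output of Agilent Feature Extraction, background-subtracted processed signals with no normalization between arrays. Their deposited normalized table holds log2 values whose TIAR columns share 1 distribution and the other 6 another; it was used only as an alternative. The labels name limma. One protocol label names a rat array, but the probes are human, with positions on hg19, and a source label of TIA1 replicate 2 reads GFP-TIA2 where its title names TIA1, which was used. All arrays were on 1 slide.

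Log2 processed signals were centred on each array's 75th percentile, spots flagged as outliers were dropped and spots of a probe averaged. Each comparison was fitted with limma 3.58.1 (lmFit, eBayes; R 4.3.3) on its 4 arrays over the probes that 1 line or both had above background on each of its arrays, with Benjamini-Hochberg adjustment over all of them, and the fit was tested on simulated data. A gene was given by its probe with the highest mean signal, and all-gene counts use 1 probe a gene. All members may be named; values on every array are given for members called at 2-fold and for the largest change against HuR of each role, and for further replication genes called at 2-fold; besides these, the text names TIMELESS, POLE4 and the ASF1 genes, chosen after their values were seen, and the genes of the expressed proteins. The members and lists were chosen with earlier results of these data known. Fold changes and n rest on 2 arrays a line. Promoter windows came from RefSeq tables (GRCh38.p14). Alternatives were background correction (normexp, offset 50), quantile normalization, the deposited table, other filters, and all 8 arrays or all but GFP 1 in a fit. Further ones were a replicate block, gene means, the study's 2-fold rule, its general paired t-test, and each array left out. The number of arrays limits the precision.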

Additional observations from a re-analysis of the deposited data

How the results depend on the processing

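Of the 21 members called in TIA1 against HuR and the 18 called in TIAR against HuR, none changed direction under any alternative. Quantile normalization kept all 21 and all 18, and so did probes well above background on all 4 arrays and the mean of a gene's probes; normexp kept 21 and 16, the authors' normalized values kept 20 and 15, and 7 arrays without GFP 1 (chosen after seeing the data) 20 and 15. Calls fell in number as follows, for higher and lower members. Testing all probes left 3 and 0 in TIA1 (all genes 6.3% and 3.1%) and 4 and 0 in TIAR cells (4.22% and 1.48%). All 8 arrays in a fit left 11 and 2 in TIA1 (all genes 10.7% and 8.08%) and 8 and 0 in TIAR cells (7.71% and 4.92%). Against GFP that fit gave 10 and 2 in TIA1 (all genes 10.9% and 8.09%) and 5 and 0 in TIAR cells (7.22% and 4.36%). The 2-fold rule left 2 and 0 (all genes 8.44% and 4.74%), and 3 and 0 (7.38% and 2.84%). The paired t-test left 10 and 2 in TIA1 cells at p under 0.05 (all genes 12.8% and 9.47%). After adjustment it left 0 throughout against HuR, as for all genes. The cause was not tested.

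Leaving out 1 array gave 2 to 19 higher and 0 to 6 lower members in TIA1 against HuR, 0 to 15 and 0 to 3 in TIAR against HuR, 0 to 16 and 0 to 2 in TIA1 against GFP, 0 to 13 and 0 to 0 in TIAR against GFP, 0 to 12 and 0 to 8 in HuR against GFP, and 0 to 0 in TIAR against TIA1. The calls against GFP came without GFP 2 (16 and 1, 13 and 0, 12 and 2) or without GFP 1 (0 and 2, 0 and 0, 0 and 8). Without GFP 2 the all-gene shares were 15.6% and 19.5% in TIA1, 10.4% and 17.5% in TIAR and 24.1% and 30.1% in HuR cells, and without GFP 1 they were 8.58% and 5.41%, 5.12% and 1.56%, and 11.5% and 11.5%. Without either HuR array, 2 of the 21 calls in TIA1 and 0 of the 18 in TIAR cells against HuR were kept. The medians then ran from 0.16 to 0.29, 0.12 to 0.24, 0.09 to 0.46, -0.044 to 0.45, -0.22 to 0.15 and -0.07 to -0.01 in the same order. The median in TIAR against HuR was 0.19 after normexp and 0.34 in the deposited table, which gave 0.07 in TIAR against TIA1.

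Without GFP 1, the 7-array fit gave 11 and 5 members against GFP in TIA1, 7 and 4 in TIAR (median -0.044) and 0 and 6 in HuR cells. Between TIAR and TIA1 it gave 1 higher (GINS2) and 1 lower (all genes 5.75% and 5.27%). Gene means gave 1 and 1 (2.3% and 2.1%) and the paired t-test 4 and 3 (6.14% and 6.89%). Quantile normalization, the deposited table and the all-array filter gave 1 higher each (1.69%, 1.19% and 1.76%).

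The replicate numbers did not pair the samples: the deviations of same-numbered arrays correlated between -0.07 and 0.15. The replicate block gave 16 and 4 members in TIA1 against HuR (all genes 21.4% and 15.3%), with 19 of 21 calls kept. In TIAR against HuR it gave 11 and 0 (all genes 13.1% and 7.28%), with 11 of 18 kept.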
